A study of Mus musculus with 15 samples.

Results

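The enteroendocrine cell genes followed here were Chga, Chgb, Scg2, Gcg, Pyy, Insl5, Tph1, Sst, Cck and Neurod1, picked by symbol from the gene count tables of a mouse colon RNA-seq study. Of these 10 genes, 7 had a row in all 3 tables, out of 12897 genes with a row in any table. Expression of Sst, Cck and Neurod1 was not analysed here, and these 3 enter through their promoter letters alone. None of the 7 genes passed the study's cut-offs of fold change and adjusted p, under the test used here, in any of the 6 comparisons. Gcg and Insl5 did pass between untreated genotypes when the other set of untreated B6 mice was used. The values that varied most between groups were those of Insl5 and Gcg.

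Enteroendocrine cells are scattered, hormone-secreting cells of the gut epithelium. In the distal colon they are mainly L cells, which release peptide YY, glucagon-like peptides and insulin-like peptide 5, and enterochromaffin cells, which make serotonin. Their hormones are stored in dense-core granules packed with granin proteins, and the transcription factors Neurog3 and Neurod1 direct their differentiation.

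The samples were distal colons of C57BL/6 (B6) mice and of Irf1-/- mice, labelled as the same strain and lacking the transcription factor interferon regulatory factor 1. The study's methods give an age of 8 to 10 weeks at the start of treatment. The age of each group when its colons were collected is not stated. There were 5 groups of 3 libraries. These were untreated B6 control set 1, untreated B6 control set 2, untreated Irf1-/- mice, and B6 and Irf1-/- mice taken at day 26 (D26) of AOM/DSS treatment. Treated mice of both genotypes had received 1 injection of the carcinogen azoxymethane (AOM, 7 mg/kg) and then 2% dextran sulfate sodium (DSS), which injures the colon epithelium, in the drinking water from day 8 to day 11. The mutation is carried by every cell of the Irf1-/- mice and not by one cell type. RNA came from homogenised whole tissue, in which fewer cells of a type and less RNA per cell cannot be told apart.

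Totals per library ranged from 22266607 to 22869853 counts. Irf1 itself had 161, 155 and 144 CPM (reads scaled to library size with TMM factors) in set 1, 141, 128 and 131 in set 2, 79.4, 117 and 87.6 in untreated Irf1-/-, 174, 223 and 227 in B6 D26 and 108, 123 and 99.97 in Irf1-/- D26. The mutants were lower than the B6 libraries of either state, but not near 0, and which exons the deletion removed is not given in the sources used here. All 17 epithelial marker genes had a row in every table. Among genes that specify or accompany the endocrine lineage, 8 of 17 transcription factors and 3 of 13 further hormones had one in any table. The numbered libraries are not stated in the labels to be separate animals, so p-values measure the spread between these libraries.

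Short stretches of promoter are shown first to let the genes be compared by the letters upstream of their start, since groups of them share letters that known regulators of endocrine genes bind. RefSeq promoters (GRCm38.p6) were matched for 10 of 10 genes, and the 250 bases before each start were searched on both strands. The cAMP response element TGACGTCA, the letters bound by CREB-type factors, stood upstream of 3 of the 10 genes, Chgb, Scg2 and Sst, and upstream of 1.77% of 27025 genes. Its shorter form TGACG, which lies inside each full element too, stood upstream of 6 of 10 genes and of 19.8% of all. The E-box CAGATG, a form of CANNTG that Neurod1-type factors can bind, stood upstream of Gcg, Insl5 and Cck (3 of 10, against 16.3% of all genes), and CANNTG upstream of 9 of 10 (69.3% of all). The interferon-type element, GAAA repeated after any 2 bases, was found for Sst alone of the 10 genes, and for 3.46% of all. Below, 30 bases around a match are printed 5′ to 3′ on the gene's strand, with the matched letters in capitals. In the granin genes Chgb (chr2:132781559-132781588, plus strand) and Scg2 (chr1:79440076-79440105, minus strand) they mark the full element, in Chga (chr12:102554885-102554914, plus strand) the shorter form, and in the L cell hormone genes Gcg (chr2:62483719-62483748, minus strand) and Insl5 (chr4:103026889-103026918, minus strand) the E-box. The first bases of these matches lay 72, 68, 44, 83 and 178 bases before the start, in that order, counted for Insl5 from the second of its listed starts.
Chgb: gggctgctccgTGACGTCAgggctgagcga
Scg2: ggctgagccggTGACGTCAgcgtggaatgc
Chga: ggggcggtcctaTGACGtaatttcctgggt
Gcg: ccccattatttaCAGATGagaaatttatat
Insl5: gtgagatgtgttCAGATGaccgagtgagca
A match is a description of letters and not a bound site.

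Per length of transcript, the L cell hormones Pyy and Insl5 had the highest levels of the 7 genes. The mean over 15 libraries was 104.8 CPM per kb for Pyy and 93.7 CPM per kb for Insl5, and their ranges overlapped (88.6 to 155.5 and 58.5 to 126.5). Chgb followed at 34.1, Chga at 26.1 and Gcg, which encodes the precursor of the glucagon-like peptides, at 22.2 CPM per kb, and the ranges of these neighbours overlapped as well. Tph1, the rate-limiting enzyme of serotonin synthesis in enterochromaffin cells, had 9.80 and Scg2 had 7.05 CPM per kb. Lengths came from a different annotation than the authors' counts, so levels per kb are approximate. The spread over all 15 libraries was smallest for Chgb, with a coefficient of variation of 11.6%, and largest for Insl5, with 21.8%. The plot of CPM by library shows all 7 genes.

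**Figure D1:**
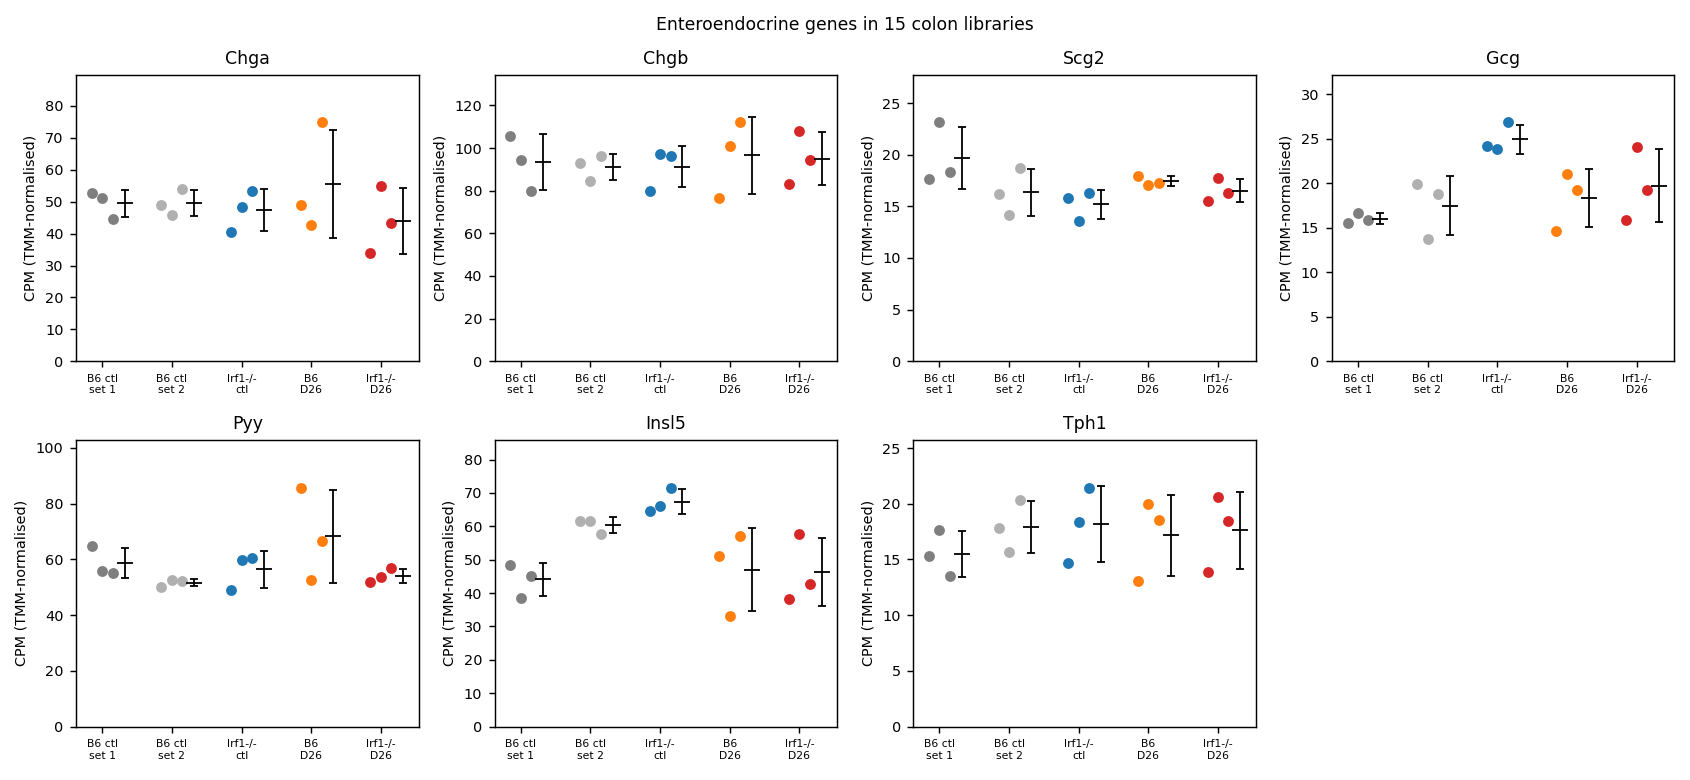
CPM (y axis, TMM-normalised) of the 7 enteroendocrine genes in 5 groups (x axis, where ctl is untreated), with a point for each library and, in black, the mean and SD of 3 libraries. The 3 untreated Irf1-/- libraries of Gcg sit between 23.9 and 26.8 CPM, and Insl5 is at 57.6 CPM or more in both control set 2 and untreated Irf1-/-.

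Chga, which encodes chromogranin A, the general marker of endocrine cells, had 52.8, 51.1 and 44.7 CPM in set 1, 48.9, 45.9 and 53.9 in set 2 and 40.6, 48.3 and 53.5 in untreated Irf1-/-. In treated mice Chga had 49.1, 42.7 and 74.9 CPM in B6 and 34.1, 54.8 and 43.2 in Irf1-/-. These groups overlapped, and the highest Chga level was that of 1 B6 D26 library. The value of Chga in treated over untreated mice was a log2 FC of 0.18 ± 0.19 (SE, 95% interval -0.25 to 0.60, adjusted p = 0.562) in B6, and a log2 FC of -0.11 ± 0.16 (SE, 95% interval -0.48 to 0.26, adjusted p = 0.792) in Irf1-/-. Between untreated genotypes the log2 FC of Chga was -0.06 ± 0.10 (SE), with a 95% interval that stayed within a 1.5-fold change in either direction.

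Chgb, a second granin, had 106, 94.6 and 80.0 CPM in set 1, 92.9, 84.5 and 96.2 in set 2, 80.1, 97.4 and 96.3 in untreated Irf1-/-, 76.6, 101 and 112 in B6 D26 and 83.1, 108 and 94.4 in Irf1-/- D26. All 5 groups overlapped. Its difference between untreated genotypes was a log2 FC of 0.0017 ± 0.09 (SE, 95% interval -0.19 to 0.20, adjusted p = 0.998). After treatment the log2 FC of Chgb was 0.06 ± 0.15 (SE) in B6 and 0.06 ± 0.11 (SE) in Irf1-/-. Scg2, which encodes secretogranin II, had 17.7, 23.1 and 18.3 CPM in set 1, 16.2, 14.2 and 18.7 in set 2, 15.8, 13.6 and 16.2 in untreated Irf1-/-, 18.0, 17.1 and 17.3 in B6 D26 and 15.5, 17.8 and 16.3 in Irf1-/- D26. Its highest library was in set 1, whose other libraries overlapped set 2. Between the control sets Scg2 had a log2 FC of -0.27 ± 0.14 (SE, 95% interval -0.58 to 0.04, adjusted p = 0.364). Enteric neurons express Chgb and Scg2 too. The summed CPM of 11 neuron markers was 149.0 to 194.5 in set 1, against 115.6 to 131.1 in set 2, and its part in the Scg2 value was not tested.

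Gcg was at its highest level in untreated Irf1-/- mice. It had 15.5, 16.7 and 15.9 CPM in set 1, 20.0, 13.7 and 18.8 in set 2 and 24.1, 23.9 and 26.8 in untreated Irf1-/-, so that every untreated mutant library lay above all 6 untreated B6 libraries. Against set 2 this was a log2 FC of 0.51 ± 0.13 (SE, 95% interval 0.21 to 0.81, adjusted p = 0.144), which missed the threshold. Against set 1, Gcg rose by a log2 FC of 0.635 with an adjusted p of 0.00283, past the threshold, which 1.10% of all genes passed in either direction. In treated mice Gcg had 14.7, 21.1 and 19.2 CPM in B6 and 15.9, 24.1 and 19.2 in Irf1-/-, groups that overlapped each other. The response to treatment was a log2 FC of -0.34 ± 0.14 (SE, 95% interval -0.66 to -0.01, adjusted p = 0.253) in Irf1-/-, and a log2 FC of 0.20 ± 0.14 (SE, 95% interval -0.12 to 0.53, adjusted p = 0.369) in B6. The difference between these responses was a log2 FC of -0.53 ± 0.21 (SE, 95% interval -0.996 to -0.07, adjusted p = 0.233).

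Insl5, the insulin-like peptide that colonic L cells release, had separate ranges in the 2 untreated B6 sets. It had 48.5, 38.6 and 45.2 CPM in set 1, 61.7, 61.6 and 57.6 in set 2 and 64.5, 66.0 and 71.6 in untreated Irf1-/-. None of these 3 groups overlapped another, with set 1 lowest and the mutants highest. Set 2 over set 1 gave a log2 FC of 0.45 ± 0.09 (SE, 95% interval 0.25 to 0.66, adjusted p = 0.0596), which missed the threshold. Against set 2, the untreated mutants had a log2 FC of 0.16 ± 0.07 (SE, 95% interval 0.01 to 0.31, adjusted p = 0.427). Against set 1, Insl5 rose in the mutants by a log2 FC of 0.61 with an adjusted p of 0.00320, past the threshold, so this call depended on which untreated B6 mice were used.

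After treatment Insl5 had 51.0, 33.1 and 57.0 CPM in B6 and 38.3, 57.7 and 42.8 in Irf1-/-. All treated mutant libraries lay below all untreated mutant libraries. The treated B6 libraries overlapped set 1, but all lay below set 2, whose lowest library had 57.6 CPM. The response was a log2 FC of -0.54 ± 0.13 (SE, 95% interval -0.84 to -0.23, adjusted p = 0.0777) in Irf1-/-, and a log2 FC of 0.10 ± 0.18 (SE, 95% interval -0.31 to 0.52, adjusted p = 0.733) in B6 against set 1. With set 2 as the untreated B6 group the B6 response of Insl5 had the opposite sign, with a log2 FC of -0.34 (adjusted p = 0.196). The difference between the responses was a log2 FC of -0.64 ± 0.25 (SE, 95% interval -1.18 to -0.09, adjusted p = 0.232), and it was -0.18 on the log2 scale (adjusted p = 0.761) with set 2. Both treated genotypes were near the same level, with a log2 FC of -0.02 ± 0.18 (SE, 95% interval -0.41 to 0.37, adjusted p = 0.947). Summed posterior Hox genes, which mark position along the gut, were at 305.4 to 406.8 CPM in Irf1-/- D26 and 419.3 to 430.2 in untreated Irf1-/-. Most of this sum was Hoxb13, with means of 244.4 and 303.8 CPM in these groups. The 6 Hox genes did not move as one. Of them, 2 had a positive log2 FC, and 1 higher and 1 lower had an unadjusted p under 0.05. Summed leukocyte markers were at 404.0 to 459.9 and 264.0 to 320.5 CPM in the same groups. Their part in the Insl5 value was not tested.

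Pyy, which encodes the appetite-suppressing peptide YY of the same L cells, had 64.8, 55.8 and 55.2 CPM in set 1, 50.1, 52.5 and 52.3 in set 2 and 48.8, 59.8 and 60.5 in untreated Irf1-/-. The 2 control sets did not overlap, and set 2 over set 1 gave a log2 FC of -0.18 ± 0.08 (SE, 95% interval -0.36 to -0.0005, adjusted p = 0.289), opposite in sign to Insl5. In treated mice Pyy had 85.7, 52.5 and 66.4 CPM in B6 and 51.9, 53.6 and 56.7 in Irf1-/-. The B6 D26 libraries were widely spread, and the lowest of them lay within the range of the mutants. Treated mutants over treated B6 mice gave a log2 FC of -0.33 ± 0.14 (SE, 95% interval -0.65 to -0.02, adjusted p = 0.143), which missed the threshold. The response of Pyy to treatment was a log2 FC of 0.23 ± 0.16 (SE, 95% interval -0.14 to 0.59, adjusted p = 0.369) in B6, and a log2 FC of -0.06 ± 0.09 (SE, 95% interval -0.26 to 0.15, adjusted p = 0.797) in Irf1-/-.

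Tph1 had 15.3, 17.6 and 13.5 CPM in set 1, 17.8, 15.6 and 20.3 in set 2, 14.7, 18.4 and 21.5 in untreated Irf1-/-, 13.1, 20.0 and 18.5 in B6 D26 and 13.8, 20.6 and 18.4 in Irf1-/- D26. Its groups overlapped in all pairs compared. The log2 FC of Tph1 was 0.02 ± 0.15 (SE) between untreated genotypes, 0.16 ± 0.17 (SE) for treatment in B6 and -0.04 ± 0.18 (SE) for treatment in Irf1-/-. Counts of Tph1 were 297 to 486 reads per library, and the 95% intervals of these 3 values lay within a 1.5-fold change in either direction.

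**Figure D2:**
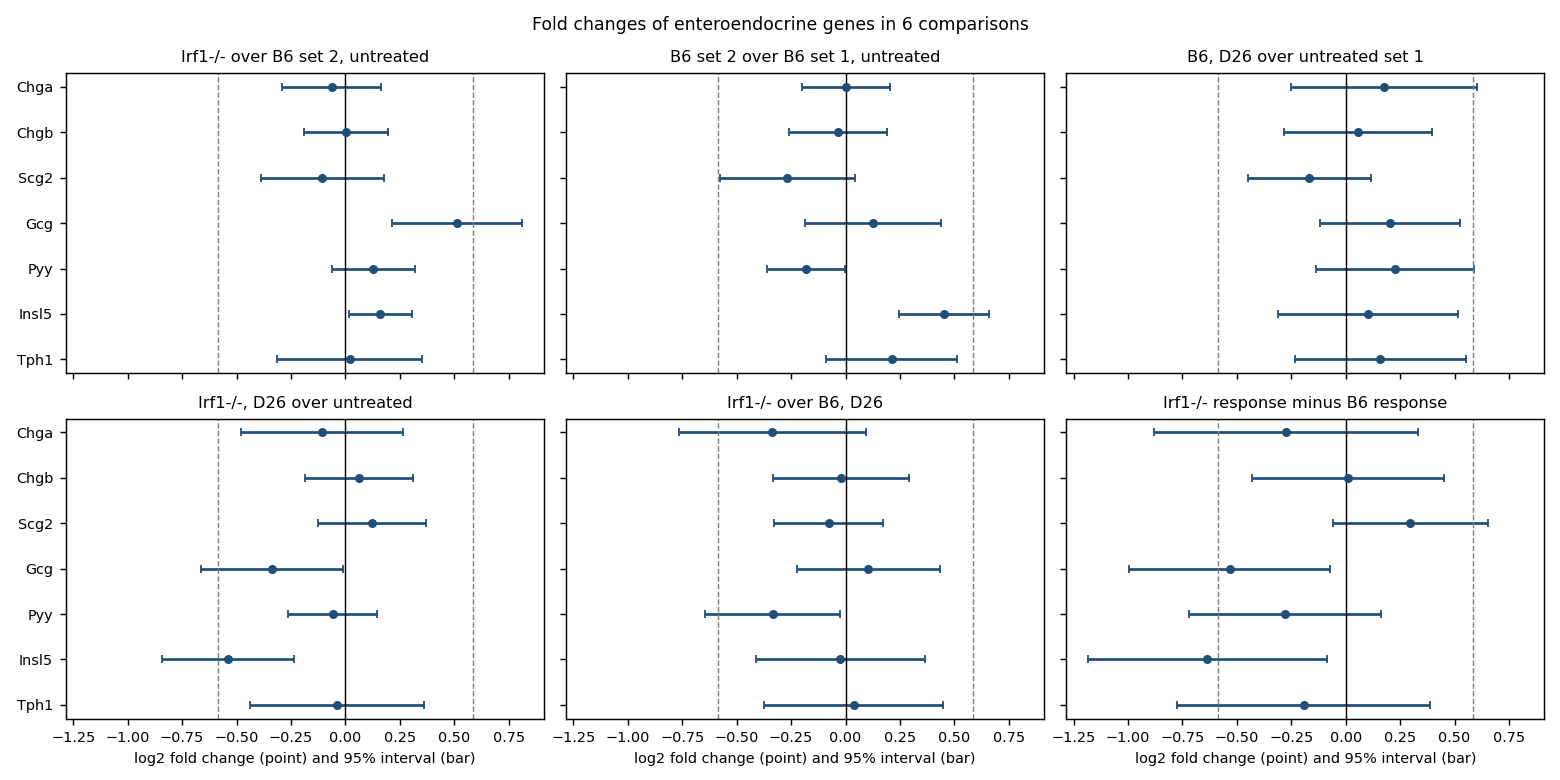
Log2 fold change (x axis, point) with its 95% interval (bar) for the 7 genes (y axis) in 6 comparisons, from edgeR's quasi-likelihood fit. Dashed lines mark a 1.5-fold change, and no point lies beyond them except Insl5 in the difference of responses, at -0.64.

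The comparisons can be set against all genes tested, where a gene was called when its fold change reached 1.5 in either direction and its adjusted p was below 0.01 in edgeR's quasi-likelihood test. At steady state, Irf1-/- against set 2, 0 of 7 genes were called against 0.405% of all genes. An unadjusted p under 0.05 was reached by 2 of 7 (Gcg and Insl5, both higher), against 10.4% of all, and 2 of 7 had groups that did not overlap, against 15.5%. For treatment in Irf1-/-, 0 of 7 were called (0.252% of all), 2 of 7 had an unadjusted p under 0.05 (Insl5 and Gcg, both lower in treated mice, 18.6% of all) and 1 of 7, Insl5, did not overlap (24.8% of all). For treatment in B6, 0 of 7 were called (0.0475% of all), 0 of 7 had an unadjusted p under 0.05 (29.5% of all) and 0 of 7 were without overlap (34.6% of all). In the absence of any call, the intervals give the limits. In B6, 5 of 7 intervals lay within a 1.5-fold change in either direction, in Irf1-/- 5 of 7, and at steady state 6 of 7.

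For the difference between the 2 responses, 0 of 7 were called (0.0160% of all) and 2 of 7, Insl5 and Gcg, had an unadjusted p under 0.05 (16.9% of all). Only 1 of 7 intervals lay within 1.5-fold there, and the intervals of the other 6 genes reached past that size. Those of Insl5 and Gcg lay below 0, and those of the remaining 4 included both 0 and a 1.5-fold difference. Between treated genotypes, 0 of 7 were called (1.69% of all), 1 of 7, Pyy, had an unadjusted p under 0.05 (29.4% of all), and 0 of 7 had groups without overlap (27.7% of all). Between the control sets, 0 of 7 were called (0.0644% of all), 2 of 7 had an unadjusted p under 0.05 (Insl5 higher and Pyy lower in set 2, 17.2% of all), and the same 2 did not overlap (21.4% of all). DESeq2's Wald test called 0 of 7 in each of the 6 comparisons as well, against 0.850% of all genes at steady state, 1.74% for treatment in Irf1-/-, 3.49% for treatment in B6, 0.601% for the difference, 2.58% between treated genotypes and 1.16% between the control sets. The B6 D26 libraries favoured GC-rich genes, with a slope of 0.139 to 0.298 log2 units per 10% GC against -0.131 to 0.034 in the other libraries, and a correction for GC content also gave 0 calls among the 7 genes. Over all genes, it took calls for treatment in B6 from 4 higher and 2 lower to 0 and 0. Between treated genotypes it took them from 105 higher and 106 lower to 14 and 81. Fold changes of wider-list genes below are without this correction.

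Ratios between genes of one library do not depend on library size. The following were chosen after the values had been seen, and carry no test. The read count of Insl5 over that of Pyy was 0.748, 0.693 and 0.818 in set 1 and 1.23, 1.17 and 1.1 in set 2. It was 1.32, 1.1 and 1.18 in untreated Irf1-/-, 0.595, 0.632 and 0.858 in B6 D26 and 0.738, 1.08 and 0.755 in Irf1-/- D26. Set 2 and the untreated mutants thus lay at 1.1 or more, and the other 9 libraries at 1.08 or less. Set 2 and the untreated mutants are also the 6 libraries deposited together in a table. The untreated mutants were deposited with the Irf1-/- D26 libraries as well, whose ratios were lower. Whether libraries were prepared in batches is not given in the sources used here. Gcg over Pyy was 0.239, 0.299 and 0.288 in set 1, 0.398, 0.262 and 0.359 in set 2 and 0.494, 0.399 and 0.444 in untreated Irf1-/-. The lowest untreated mutant library (0.399) was level with the highest untreated B6 library (0.398). The ratio of Tph1 to Chga was 0.290 to 0.401 across all 9 untreated libraries and 0.377 to 0.427 in Irf1-/- D26. How Chga RNA was shared among endocrine cell types was not measured, so this ratio is not a share of cells. In B6 D26 it spread from 0.248 to 0.467, the widest of the 5 groups.

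**Figure D3:**
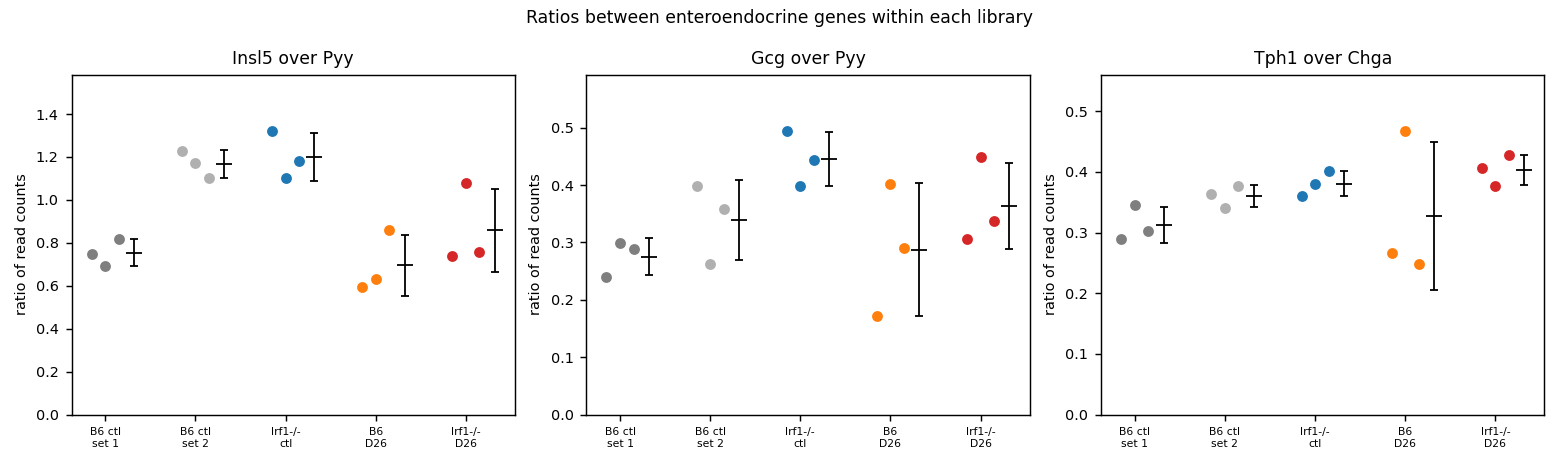
Ratio of read counts within a library (y axis) for Insl5 over Pyy, Gcg over Pyy and Tph1 over Chga, in 5 groups (x axis, where ctl is untreated), with a point for each library and, in black, the mean and SD of 3 libraries. Insl5 over Pyy is 1.1 or more in B6 control set 2 and untreated Irf1-/-, and 0.595 to 1.08 elsewhere.

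Over the 15 libraries the 7 genes varied together only in part. Of 21 pairs, 16 had a positive correlation of log2 CPM, with a median Pearson r of 0.155 against -0.002 for all pairs of genes. The highest was that of Chgb with Tph1 (r = 0.761) and the lowest -0.445. The libraries share groups, depth and the GC differences above, so these values are descriptions only. The genes whose pattern was most like that of Chga were Gm5424 (r = 0.838, rho = 0.743), Gfod1, Ppard, Tsr3 and Bphl (r of 0.741 to 0.799, rho of 0.479 to 0.679). Without the 2 libraries farthest from the median of Chga these r were 0.609 for Gm5424 and 0.306 to 0.491 for the other 4. Leaving out those libraries also narrows the range of Chga, which by itself lowers r, so no conclusion is drawn from the fall. Those most like Pyy were Thap4 (r = 0.894, rho = 0.875, and r = 0.769 without 2 libraries), Tpra1, Trmt1, Clasrp and A4galt (r of 0.854 to 0.868, and 0.658 to 0.832 without 2 libraries). Neither list held another of the 7 genes. Chgb ranked 57 among genes like Chga (r = 0.655).

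A wider list of 85 genes of the endocrine lineage and of hormone receptors had 44 genes in any table. At steady state 1 of 39 tested was called (0.405% of all genes), Ffar2, the receptor for short-chain fatty acids that L cells and many leukocytes carry. Ffar2 had 4.48, 5.73 and 5.76 CPM in set 2 and 13.3, 11.1 and 10.4 in untreated Irf1-/-, without overlap, and rose by a log2 FC of 1.12 ± 0.16 (SE, 95% interval 0.77 to 1.47, adjusted p = 0.00756). The call was lost on leaving out any 1 of the 6 libraries, and leukocyte markers summed to 196.6 to 283.8 CPM in set 2 and 264.0 to 320.5 in untreated Irf1-/-. Of the other genes, Ptprn2, a granule membrane protein, had a log2 FC of 0.46 ± 0.08 (SE, 95% interval 0.29 to 0.63, adjusted p = 0.0178), and the potassium channel gene Kcnh6 a log2 FC of 0.70 ± 0.18 (SE, 95% interval 0.31 to 1.10, adjusted p = 0.126). An unadjusted p under 0.05 was reached by 7 of 39 (10.4% of all genes). The authors kept genes that reached 5 CPM in at least 3 libraries. Kcnh6 had 4.98, 4.62 and 3.26 CPM in set 2 and 6.44, 7.39 and 7.105 in untreated Irf1-/-, so it was kept through the mutants alone. Ffar2 and Rab3b had some set 2 libraries under 5 CPM and needed the mutants as well. The rises of these genes, which are among the 39 tested, are thus not independent of the filter.

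For treatment in B6, 0 of 41 wider-list genes were called by edgeR, 15 of 41 had an unadjusted p under 0.05 (5 higher, 10 lower, 29.5% of all genes), and DESeq2 called 5 (3.49% of all genes). Those 5 were Adm, Ffar2 and Ptprn2, higher in treated mice, and Slc18a2 and Sstr1, lower. The genes of serotonin handling included Slc18a2, the vesicular transporter that loads amines into granules, and Maoa, which degrades serotonin. Slc18a2 had 11.6, 10.2 and 11.5 CPM in set 1 and 7.42, 6.68 and 5.60 in B6 D26, a log2 FC of -0.75 ± 0.15 (SE, 95% interval -1.10 to -0.40, adjusted p = 0.0274). Every treated B6 library was below every untreated B6 library, and with set 2 as the untreated group the log2 FC was -0.75. Maoa had a log2 FC of -0.52 ± 0.10 (SE, 95% interval -0.74 to -0.29, adjusted p = 0.0238), and a log2 FC of -0.21 (adjusted p = 0.169) with set 2. The somatostatin receptor gene Sstr1 had a log2 FC of -1.06 ± 0.20 (SE, 95% interval -1.52 to -0.61, adjusted p = 0.0228), and a log2 FC of -0.38 (adjusted p = 0.181) with set 2. The peptide hormone gene Adm, which many cell types express, had 3.13, 4.58 and 3.73 CPM in set 1, 7.67, 5.64 and 6.21 in set 2 and 8.26, 8.06 and 6.34 in B6 D26. Treated libraries lay above set 1 but overlapped set 2. For Adm this was a log2 FC of 0.99 ± 0.19 (SE, 95% interval 0.56 to 1.43, adjusted p = 0.0243) against set 1 and a log2 FC of 0.23 (adjusted p = 0.392) against set 2. All set 1 libraries of Adm lay under the 5 CPM of the authors' filter. Adm entered the comparison with set 1 through its treated libraries alone, so its rise there is not independent of that filter. Ffar2 had 5.81, 4.58 and 3.50 CPM in set 1 and 5.97, 16.1 and 15.1 in B6 D26, so that 1 treated library stood close to the untreated ones. Ffar2 too needed its treated libraries to pass the filter. Its response in B6 was a log2 FC of 1.42 ± 0.36 (SE, 95% interval 0.62 to 2.23, adjusted p = 0.0435), and with set 2 a log2 FC of 1.23 (adjusted p = 0.0369). Ptprn2 had a log2 FC of 0.59 ± 0.14 (SE, 95% interval 0.29 to 0.90, adjusted p = 0.0357), and with set 2 a log2 FC of 0.45 (adjusted p = 0.0445). Goblet cell markers summed to 10505 to 17304 CPM in set 1, 20773 to 26244 in set 2 and 27752 to 35749 in B6 D26, and their part in these values was not tested.

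For treatment in Irf1-/-, 0 of 42 wider-list genes were called by edgeR and 0 by DESeq2, and 9 of 42 had an unadjusted p under 0.05 (1 higher, 8 lower, 18.6% of all genes). Of these 9, 4 came from the 6 serotonin genes tested, all 4 lower, with Ddc, which decarboxylates the serotonin precursor, at a log2 FC of -0.45 ± 0.11 (SE, 95% interval -0.71 to -0.20, adjusted p = 0.0733). Of the same 6 genes, 3 were lower at that unadjusted p for treatment in B6. Between the 2 untreated control sets, 2 of them were lower and 1 higher in set 2. The transcription factor gene Foxa2 had a log2 FC of -0.41 ± 0.07 (SE, 95% interval -0.57 to -0.26, adjusted p = 0.027). For treatment in B6, Foxa2 had a log2 FC of -0.37 (adjusted p = 0.203) against set 1 and -0.36 (adjusted p = 0.197) against set 2. Ddc had -0.17 (adjusted p = 0.308) and -0.38 (adjusted p = 0.0423) in the same 2 comparisons, so lower values were not particular to the mutants. Foxa2 and Ddc are not restricted to endocrine cells. Between treated genotypes, 0 of 39 were called by edgeR, 8 of 39 had an unadjusted p under 0.05 (29.4% of all genes), and DESeq2 called 1, Slc18a2 (2.58% of all genes). Treated mutants had 8.77, 10.9 and 10.4 CPM of Slc18a2, all above treated B6, with a log2 FC of 0.61 ± 0.14 (SE, 95% interval 0.31 to 0.90, adjusted p = 0.0152). Which cells of the whole tissue carried Slc18a2, here or in the B6 response, was not tested. The lineage factor gene Rfx3 had a log2 FC of 0.52 ± 0.12 (SE, 95% interval 0.26 to 0.77, adjusted p = 0.0156). In the difference of responses 0 of 39 were called by edgeR and 0 by DESeq2, and 9 of 39 had an unadjusted p under 0.05 (16.9% of all genes). Between the control sets 0 of 37 were called by edgeR and 0 by DESeq2, and 10 of 37 had an unadjusted p under 0.05 (17.2% of all genes), led by Reg4, a marker of deep crypt secretory and enterochromaffin cells, with a log2 FC of 1.19 ± 0.29 (SE, 95% interval 0.56 to 1.83, adjusted p = 0.0814).

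The sum of the 7 enteroendocrine genes had a mean of 296.9 ± 23.9 CPM in set 1 and 304.4 ± 15.1 in set 2 (SD, n = 3). It was 320.8 ± 29.4 in untreated Irf1-/-, 320.3 ± 40.4 in B6 D26 and 293.4 ± 42.0 in Irf1-/- D26. All groups overlapped. The plot of summed markers sets these beside other cell types, where goblet cell markers had a mean of 14835 CPM in set 1, 22656 in set 2 and 32170 in B6 D26.

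**Figure D4:**
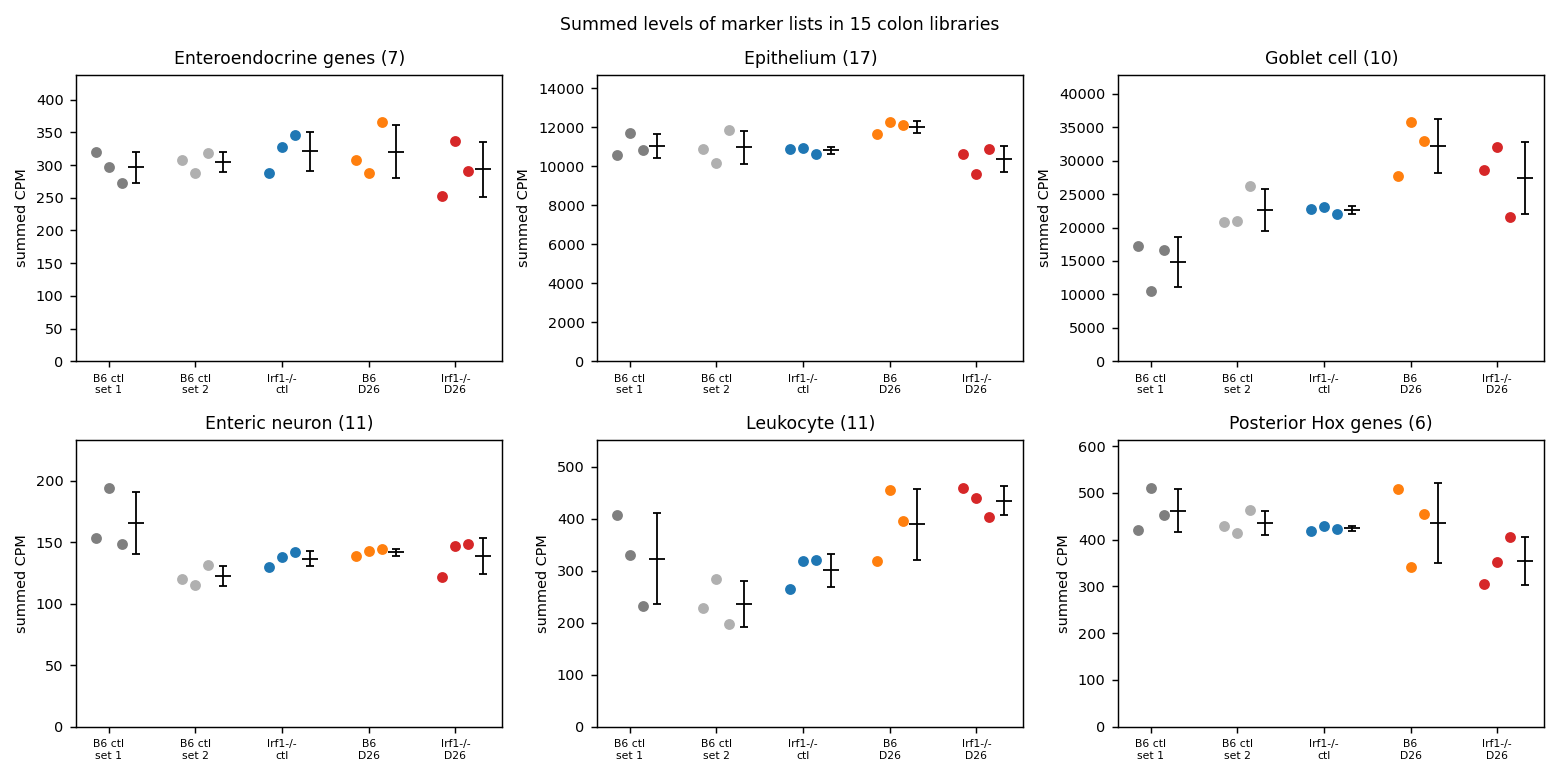
Summed CPM (y axis) of the enteroendocrine genes and of 5 marker lists in 5 groups (x axis, where ctl is untreated), with the number of genes summed in brackets, a point for each library and, in black, the mean and SD of 3 libraries. The enteroendocrine sum lies between 252.6 and 365.4 CPM in all 15 libraries, while goblet cell markers lie between 10505 and 35749.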

How the data were processed

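RNA was measured in 15 distal colon libraries (rRNA-depleted, stranded, 50 bp pairs). The tables deposited by the authors, 3 in number, hold raw read counts for each gene, and the authors, by the study's methods, left out genes under 5 CPM for at least 3 samples. The submitters' processing notes name TopHat2 2.0.9, Bowtie 1.0.0, featureCounts and edgeR, and mm9 as the build. The 36 deposited columns of CPM and log CPM, and the columns of the authors' own fold changes and p-values, were not used here. The untreated Irf1-/- libraries stand in 2 of the tables with the same counts, and each entered a fit 1 time.

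Each comparison was fitted over the whole table with TMM scaling and the quasi-likelihood test of edgeR 4.0.16 (R 4.3.3), adjusted by Benjamini-Hochberg over all genes tested (12643 for treatment in B6, 12692 for treatment in Irf1-/-, 12588 at steady state, 12483 between treated genotypes and for the difference of responses, 12417 between control sets). A call needed a fold change of at least 1.5 and an adjusted p under 0.01. CPM over 15 libraries used 12370 genes found in all tables. The script was tested on simulated data. The groups were control set 1 and treated B6, control set 2 and untreated Irf1-/-, and untreated and treated Irf1-/-, as tabulated, and lengths and GC content came from GENCODE M21.

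The enteroendocrine genes and all lists were chosen with earlier results of these data known. Named beside them were up to 8 wider-list genes a comparison with the smallest unadjusted p, if under 0.05, the 5 genes most like Chga and Pyy (Pearson r), and Irf1. Alternatives were RLE size factors, DESeq2 1.42.0, a filter at 10 CPM, 1 fit of 15 libraries, a replicate block, an adjusted p under 0.05, GC correction with and without the block, scaling to epithelial genes, other untreated B6 sets, and leaving out each library.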

Additional observations from a re-analysis of the deposited data

How the results depend on the processing

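Of 756 fold changes of the 7 genes under the alternatives, 65 changed sign, and 0 of those had an unadjusted p under 0.05 in either fit. A gene of the 7 was called under 1 alternative alone, control set 1 as untreated B6 at steady state. There 2 were called higher, Gcg (0.635) and Insl5 (0.609), against 1.10% of all genes called in either direction. Wider-list calls moved more. For treatment in B6, in place of 0, there were 3 higher and 2 lower by DESeq2 and at an adjusted p under 0.05, 2 higher and 1 lower with all 15 libraries in 1 fit, 1 lower with epithelial scaling, 1 higher and 1 lower with both control sets, and 0 to 2 higher on leaving out a library (2 without B6 D26 replicate 1). For treatment in Irf1-/-, leaving out a library gave 0 to 1 lower (1 without Irf1-/- D26 replicate 3). At steady state the 1 higher call became 0 with all 15 libraries and on leaving out any library, and 2 with control set 1. Between treated genotypes there was 1 higher by DESeq2 and at an adjusted p under 0.05, and 2 with epithelial scaling. Calls over all genes moved too. For treatment in B6 they went from 4 higher and 2 lower to 227 and 214 by DESeq2. They were 222 and 208 at an adjusted p under 0.05, and 113 and 184 with all 15 libraries. Without B6 D26 replicate 1 they were 111 and 41. At steady state they went from 11 higher and 40 lower to 41 and 96 with control set 1. Between treated genotypes they went from 105 higher and 106 lower to 704 and 56 with epithelial scaling. The cause was not tested.

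Same-numbered libraries of compared groups had correlations of their deviations from -0.223 to 0.248, and in no comparison were all 3 over 0.1, so the numbers were not taken to pair libraries. With a replicate block, alone or with GC correction, the 1 wider-list call at steady state became 0, and no gene of the 7 was called in any comparison. In the 5 comparisons of pairs of groups, 0 to 3 of 6 libraries correlated best with their own number.

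With 3 libraries a group and 297 to 2562 reads per library, the precision is that of the intervals given.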

Other observations

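Genes of vesicle release in the wider list had the following values. Rab3c, a small GTPase of secretory vesicles, had a log2 FC of -0.44 ± 0.09 (SE, 95% interval -0.66 to -0.23, adjusted p = 0.03) for treatment in B6, and Cacna2d1, a calcium channel subunit, had a log2 FC of -0.40 ± 0.11 (SE, 95% interval -0.64 to -0.16, adjusted p = 0.0523). With control set 2 as the untreated group these were -0.35 (adjusted p = 0.0402) for Rab3c and -0.24 (adjusted p = 0.151) for Cacna2d1. Cplx2, which encodes complexin 2, a regulator of vesicle fusion, had a log2 FC of 0.41 ± 0.13 (SE, 95% interval 0.14 to 0.68, adjusted p = 0.138) in the difference between the responses of Irf1-/- and B6, and Stxbp5l, which encodes a syntaxin-binding protein, a log2 FC of 0.57 ± 0.22 (SE, 95% interval 0.08 to 1.05, adjusted p = 0.225). With control set 2 the difference was 0.22 (adjusted p = 0.425) for Cplx2 and 0.47 (adjusted p = 0.351) for Stxbp5l. In this difference 5 of 14 granule and processing genes had an unadjusted p under 0.05, all 5 higher, against 16.9% of all genes, and 0 of 14 were called by edgeR or DESeq2. The median log2 value of these 14 genes was 0.14, against 0.31 for 12 enteric neuron markers, of which 11 were positive, and 0.01 for all genes. This count and these medians are those with control set 1. With control set 2 as untreated B6, no granule or processing gene tested reached the level used for the count. The 5 genes counted then had log2 values of 0.13 to 0.47, all still positive. The 4 genes named are expressed by neurons as well, and the part of neurons in these values was not tested.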
